A study of Oryctolagus cuniculus with 12 samples.

Results

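Oxidative phosphorylation is the last stage of aerobic respiration, in which the mitochondrial inner membrane carries electrons from NADH and succinate to oxygen and uses the proton gradient built on the way to make ATP. Complex I oxidizes NADH, complex II oxidizes succinate, complex III passes the electrons to cytochrome c, complex IV reduces oxygen, and ATP synthase, also called complex V, makes ATP as protons flow back. Most subunits are encoded in the nucleus and imported, while a small core is encoded by the mitochondrial genome. Conjunctiva is a mucosa whose epithelium and stromal cells respire in this way, and neutrophils, which enter a fresh wound, are known to rely largely on glycolysis.

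The genes described here are nuclear subunits of these complexes, chosen by their names in the gene table of rabbit conjunctiva. Names starting with NDUFA, NDUFB, NDUFC, NDUFS or NDUFV and a digit, with UQCR, with COX4 to COX8, or with ATP5 were taken, together with SDHA to SDHD, CYC1 and CYCS. Of 20566 genes in the table, 54 matched, and 52 of these held at least 10 counts in at least 3 libraries. The 2 that did not were NDUFB1 and ATP5I, whose counts did not exceed 7 in any library. Just inside the limit lay NDUFA13, with 10 or more counts in 5 libraries, at most 20 counts, and 0 in another 5 libraries. All 52 also passed the filter for testing. They comprised 28 genes of complex I, 4 of complex II, 1 of complex III (UQCRQ), 2 of complex IV (COX4I1 and COX6A1), and 13 of ATP synthase. NDUFA4 and its paralog NDUFA4L2 were counted apart, since NDUFA4 was first described with complex I and is now known as a subunit of complex IV. ATP5S and ATP5SL carry the name of ATP synthase but are not structural subunits of it, and were counted apart as well.

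The RNA came from conjunctiva of female Japanese white rabbits and was sequenced in 4 groups of 3 libraries each. The groups TL-3h, TL-3d, and TL-14d held bleb conjunctiva of right eyes taken at 3 hours, at 3 days, and at 14 days following trabeculectomy with mitomycin C, a drug that crosslinks DNA and is used to limit scarring, and the group cont held conjunctiva of left eyes. The animals were 12 to 14 weeks old. How left eyes pair with operated eyes, and when they were sampled, was not given, and trabeculectomy itself, the anesthesia, mitomycin C, and the betamethasone, a glucocorticoid, and antibiotic ointment given at the end of surgery cannot be told apart in these groups. Trabeculectomy lets aqueous humor leave the eye under a flap of sclera and collect beneath the conjunctiva as a bleb.

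Total counts per library lay between 27111348 and 38591425. The epithelial keratins KRT4 and KRT5 were high in all groups (KRT5 averaged 1963 CPM in cont). They show that epithelium was present but do not tell conjunctiva from other epithelia. The summed level of 13 neutrophil and macrophage markers was 80.9 to 719 CPM in cont, 1756 to 3933 CPM in TL-3h, 2098 to 2402 CPM in TL-3d, and 104 to 572 CPM in TL-14d, and none of the 13 was at 0 in any library. The summed level of 14 skeletal muscle markers was 33.3 to 673 CPM in cont, 16.2 to 22 CPM in TL-3h, 5.35 to 547 CPM in TL-3d, and 5.52 to 63.3 CPM in TL-14d, with up to 7 of them at 0 in 1 library. The sums were 8558 to 13645, 6909 to 11238, 8223 to 19156, and 11332 to 15240 CPM for 10 epithelial and goblet cell markers, in the same order of groups. For 8 smooth muscle and pericyte markers they were 328 to 405, 294 to 350, 436 to 1114, and 335 to 1022 CPM, and for 7 adipocyte markers 120 to 475, 346 to 441, 55.9 to 166, and 61.0 to 160 CPM. Leukocyte marker sums in TL-3h and TL-3d therefore lay above all cont libraries, while those of TL-14d overlapped with cont, and their part in these results was not tested. In bulk tissue, fewer cells of a type and less RNA per cell cannot be told apart. Within cont, TL-3d, and TL-14d, the libraries cont replicate 3, TL-3d replicate 3, and TL-14d replicate 1 correlated least with the others of their group.

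Levels are given as CPM (counts scaled to a common library size, with TMM adjustment, a scaling that assumes that most genes do not change), and q is the p-value of the edgeR quasi-likelihood test adjusted over all 14835 genes tested. A gene was called at a q of 0.05 or less. The TMM factors were 0.77 to 0.78 in the TL-3h libraries and 1.03 to 1.13 in the others, so the scaling bears on every comparison with TL-3h. With TMM, the 52 genes together made up 3476 to 3618 CPM in cont, 4020 to 4466 CPM in TL-3h, 3917 to 4267 CPM in TL-3d, and 3689 to 3950 CPM in TL-14d. Each operated group lay above cont without overlap on this scale. As a share of all raw counts, they made up 0.391% ± 0.028 in cont, 0.327% ± 0.019 in TL-3h, 0.441% ± 0.029 in TL-3d, and 0.413% ± 0.017 in TL-14d (SD, n = 3), so the order of TL-3h and cont turned with the scaling.

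Most of the 52 genes moved little at 3 hours. Between TL-3h and cont, 9 genes rose and 2 fell, and 41 did not pass the test. Over all genes tested, 23.2% rose and 22.2% fell in the same comparison. The median log2 fold change of the 52 genes was 0.09, beside 0.02 over all genes. In this comparison, 31 of the 52 estimates were above 0 and 21 were below. With library size alone as the scaling, the median of all genes shifted to -0.47 and that of the 52 genes to -0.42, and 1 of them was called higher and 25 lower, beside 12.7% and 38.2% of all genes. The 1 kept as higher was ATP5G1, and NDUFB3 and ATP5S stayed lower. Relative to the median of all genes, the median of the 52 genes was therefore slightly higher under either scaling.

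**Figure D1:**
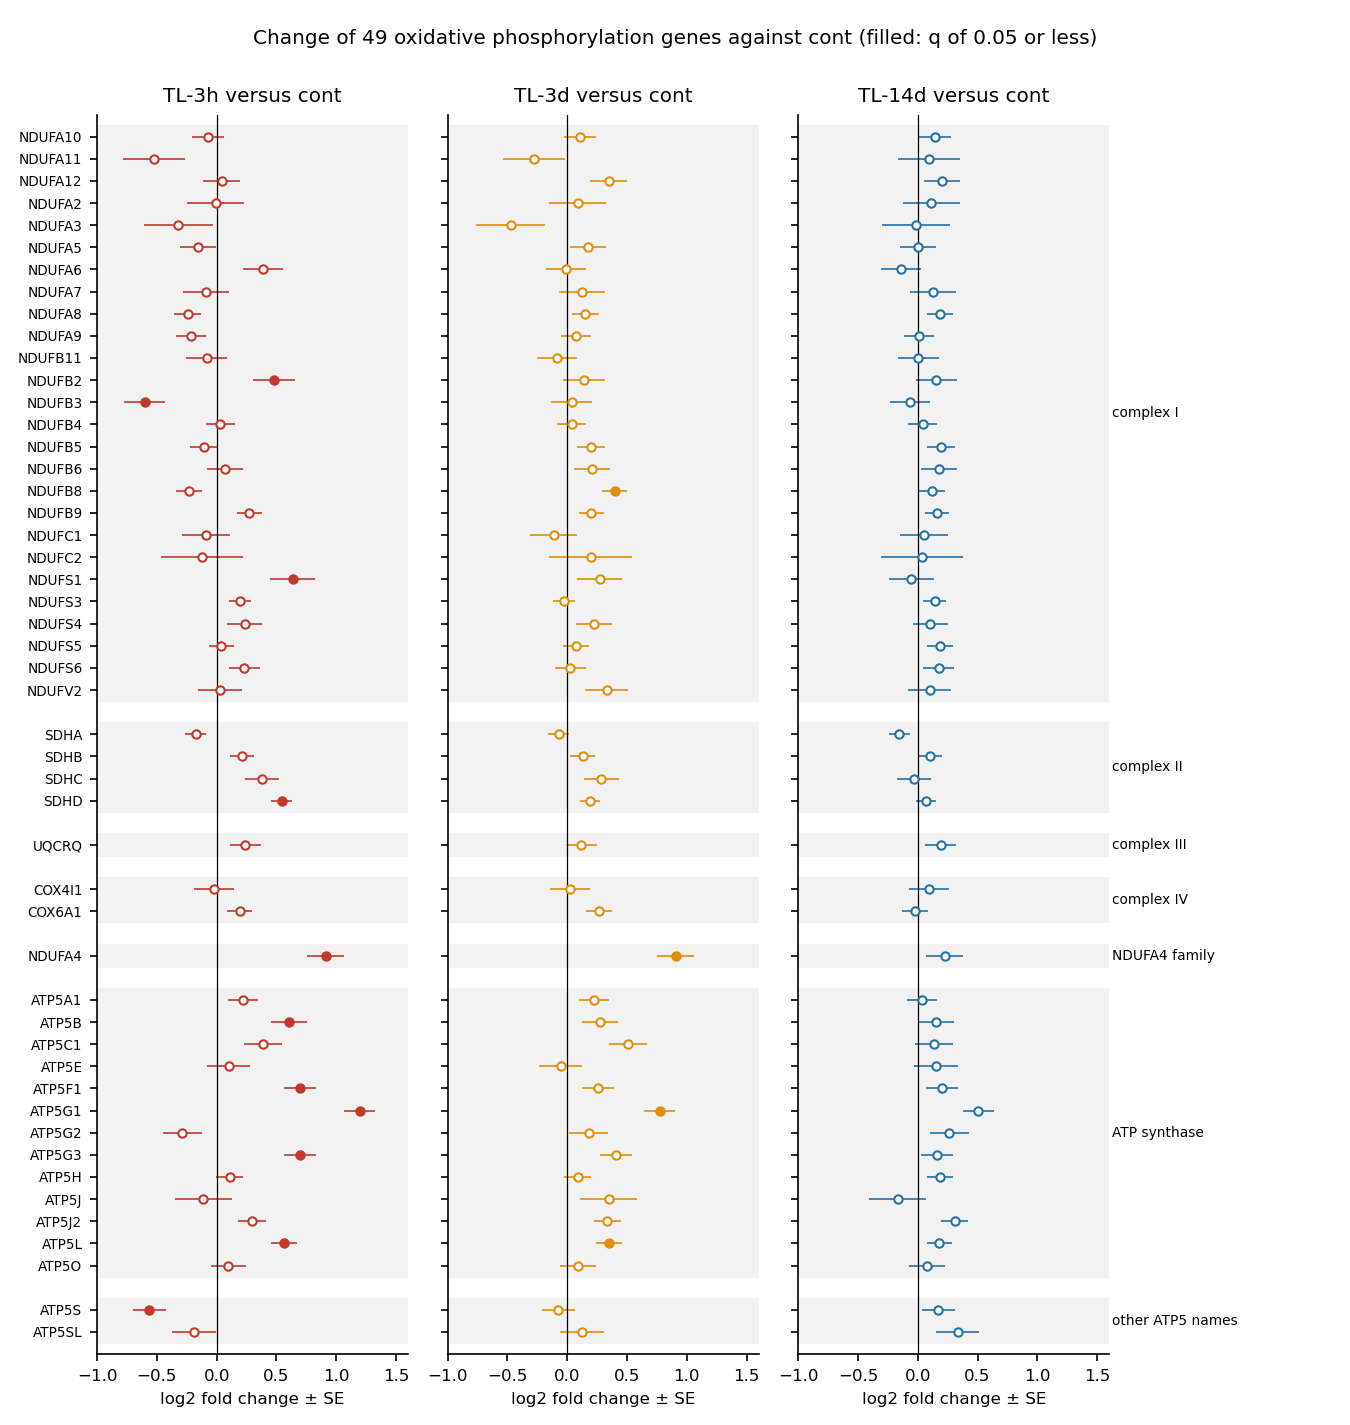
Log2 fold change against cont (x axis, TMM scaling) of 49 of the 52 genes in rows, grouped by complex, in 3 panels for the 3 times; bars are standard errors from the fit over 12 libraries, and filled points have a q of 0.05 or less. NDUFA13 and NDUFA4L2 are left out of the plot since their standard errors exceed 1, and 1 more gene is not drawn. At 3 hours 5 of 13 ATP synthase genes are filled, all on the higher side, and at 14 days no point is filled.

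Of the 9 genes that rose at 3 hours, 5 belong to ATP synthase. Of its 13 genes none fell, beside 23.2% higher and 22.2% lower of all genes, and their median log2 fold change was 0.30. With library size alone, only ATP5G1 of these 5 was called higher. The largest increase among all 52 genes was that of ATP5G1, which encodes the c subunit, the protein of the ring that turns in the membrane. ATP5G1 lies on chromosome 19 from 38526415 to 38528938 (OryCun2.0, minus strand). Its level was 14.8, 17.3, and 18.0 CPM in cont, 41.0, 37.6, and 36.3 CPM in TL-3h, 28.9, 28.7, and 28.1 CPM in TL-3d, and 20.5, 26.7, and 24.0 CPM in TL-14d. Every operated library was above every cont library. The log2 fold change was 1.20 ± 0.13 (SE) at 3 hours (q = 0.00011) and 0.77 ± 0.13 at 3 days (q = 0.011). At 14 days it was 0.51 ± 0.13, which did not pass the test (q = 0.35) but passed with DESeq2 (q = 0.014), without TL-14d replicate 1 (q = 0.031), and without the 3 libraries that correlated least with their groups (q = 0.037).

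The c subunit is encoded by 3 genes, ATP5G1, ATP5G2, and ATP5G3, whose mature proteins are known to be identical and which differ in the presequence that directs import. ATP5G3 was at 63.3, 70.4, and 77.0 CPM in cont and 112, 113, and 116 CPM in TL-3h. It rose by a log2 fold change of 0.69 ± 0.13 (q = 0.0022), and its groups did not overlap. ATP5G2 was at 112, 98.4, and 85.1 CPM in cont and 89.9, 65.5, and 86.9 CPM in TL-3h, and its groups overlapped. Its log2 fold change of -0.29 ± 0.16 did not pass the test (q = 0.18). From 3 hours to 3 days ATP5G2 rose to 112, 110, and 113 CPM, a log2 fold change of 0.47 ± 0.16 (q = 0.045), while ATP5G1 fell by 0.42 ± 0.13 on the log2 scale (q = 0.028). Either call was lost when any TL-3d library was left out. ATP5G1 was also not called without any 1 of the TL-3h libraries (q up to 0.108), and its direction turned with library size alone (0.06). ATP5G2 was not called in 7 of 20 alternatives, with a highest q of 0.118 without TL-3h replicate 2.

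The makeup of the c subunit mRNA can be read within each library without any scaling between libraries. In FPKM, which divides by transcript length, ATP5G2 was the main gene in cont with 52.8% ± 5.84 of the FPKM of the 3 genes (SD, n = 3), beside 36.8% ± 4.58 for ATP5G3 and 10.4% ± 1.29 for ATP5G1. In TL-3h the shares were 34.1% ± 3.68 for ATP5G2, 47.0% ± 3.01 for ATP5G3, and 18.9% ± 1.30 for ATP5G1, so that ATP5G3 was above ATP5G2 in all TL-3h libraries and below it in all cont libraries. In TL-3d the order of cont was back, with 47.4% ± 0.447 for ATP5G2, 38.5% ± 0.517 for ATP5G3, and 14.1% ± 0.305 for ATP5G1. The share of ATP5G1 in TL-3d, 13.8% to 14.4%, lay between the 9.01% to 11.5% of cont and the 17.4% to 19.9% of TL-3h. In TL-14d it was 11.5% to 13.7%. The 3 genes summed to 180 to 190 CPM in cont, 216 to 243 CPM in TL-3h, 229 to 237 CPM in TL-3d, and 197 to 240 CPM in TL-14d. These shares were described without a test. The deposited counts held fractions in 8 of 12 libraries for ATP5G2, in 7 for ATP5G3, and in 3 for ATP5G1. Whether these genes share reads was not tested.

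**Figure D2:**
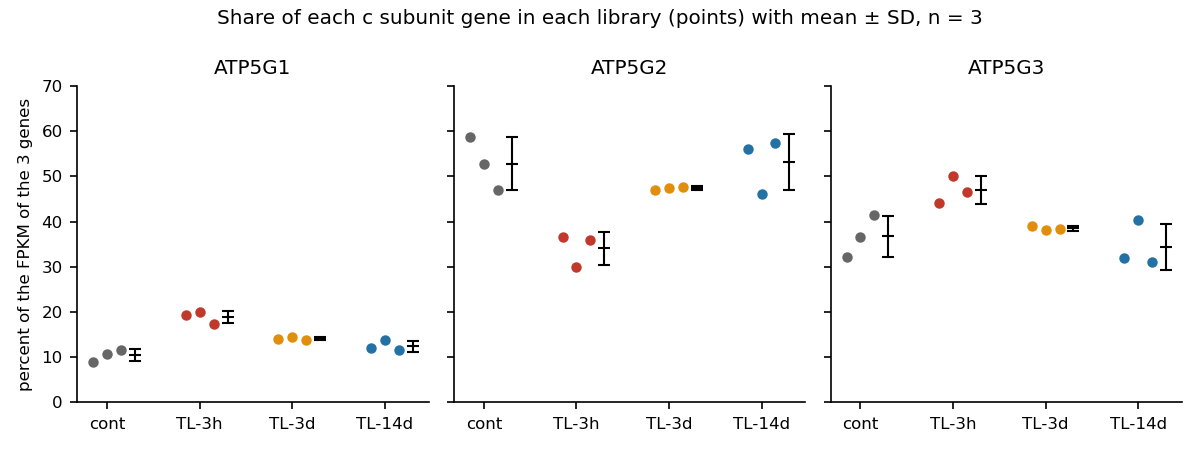
Share (percent, y axis) of ATP5G1, ATP5G2, and ATP5G3 in the summed FPKM of the 3 c subunit genes, by group; points are libraries and bars are mean ± SD of 3. ATP5G2 holds 29.9% to 36.5% in TL-3h and 47.1% to 58.7% in cont.

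The other ATP synthase genes that rose at 3 hours belong to the catalytic head, the stator, and the membrane part. ATP5B, the catalytic beta subunit, was at 531, 526, and 514 CPM in cont and 825, 805, and 764 CPM in TL-3h (log2 fold change 0.61 ± 0.15, q = 0.0083). ATP5F1, subunit b of the stalk that holds the head in place, was at 109, 91.8, and 111 CPM in cont and 176, 168, and 163 CPM in TL-3h (0.70 ± 0.13, q = 0.0020). ATP5L, subunit g of the membrane part, was at 55.1, 55.4, and 52.4 CPM in cont and 85.8, 74.5, and 80.5 CPM in TL-3h (0.56 ± 0.11, q = 0.0019). In each of these 3 genes the TL-3h libraries lay above all cont libraries. ATP5A1, the alpha subunit that pairs with beta in the head, was at 567, 576, and 547 CPM in cont and 701, 631, and 639 CPM in TL-3h. Its groups did not overlap either, but its log2 fold change of 0.22 ± 0.13 did not pass the test (q = 0.18). ATP5S, a regulatory factor outside the structural complex, fell from 9.97, 11.5, and 11.1 CPM to 7.69, 7.51, and 6.80 CPM, a log2 fold change of -0.56 ± 0.14 (q = 0.0079). Its deposited counts held fractions in all 12 libraries, and whether it shares reads with another locus was not tested.

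In complex I, 2 of 28 genes rose and 1 fell at 3 hours, beside 23.2% and 22.2% of all genes, and the median log2 fold change was -0.04. The difference from ATP synthase was not tested. NDUFS1, the large iron-sulfur subunit of the NADH-oxidizing arm, was at 77.5, 81.7, and 87.1 CPM in cont and 129, 118, and 136 CPM in TL-3h, without overlap (log2 fold change 0.63 ± 0.19, q = 0.020). Its call was lost without cont replicate 1 or 2 (q = 0.070 and 0.059), without TL-3h replicate 1 or 3 (q = 0.062 and 0.079), and with library size alone (q = 0.579). NDUFB2, a small accessory subunit of the membrane arm, rose by 0.48 ± 0.18 (q = 0.047), a call lost in 14 of 20 alternatives, while in 1 more, library size alone, the estimate turned to -0.03 and did not pass. NDUFB3, another accessory subunit of the membrane arm, was at 17.8, 19.4, and 18.1 CPM in cont and 13.4, 8.96, and 14.1 CPM in TL-3h. It fell by 0.60 ± 0.17 on the log2 scale (q = 0.017), and its groups did not overlap, though the call was lost without cont replicate 2 (q = 0.056) and in a fit of the 6 libraries compared (q = 0.059). NDUFA13 was too sparse for an estimate, with a standard error of 1.59 on a log2 fold change of 0.53.

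In complex II, succinate dehydrogenase, only SDHD passed the test at 3 hours. SDHD, a membrane anchor, was at 45.8, 47.9, and 47.5 CPM in cont, 65.0, 68.5, and 72.3 CPM in TL-3h, 53.0, 54.0, and 54.0 CPM in TL-3d, and 47.7, 49.6, and 50.8 CPM in TL-14d. The TL-3h libraries lay above those of every other group. It rose by a log2 fold change of 0.54 ± 0.09 at 3 hours (q = 0.00074) and fell by 0.35 ± 0.09 on the log2 scale from 3 hours to 3 days (q = 0.0095), though with library size alone the latter estimate turned to 0.12 and did not pass (q = 0.319). SDHA, which carries the flavin and oxidizes succinate, was at 150, 154, and 160 CPM in cont and 141, 135, and 136 CPM in TL-3h (-0.17 ± 0.09, q = 0.14). SDHB, the iron-sulfur subunit, was at 54.2, 58.1, and 61.0 CPM in cont and 71.0, 59.0, and 70.2 CPM in TL-3h (0.21 ± 0.10, q = 0.12). With TMM, SDHA and SDHB thus had estimates of opposite sign, of which neither was called. With library size alone the estimate of SDHB turned negative and was called lower (q = 0.043). SDHC, the second anchor, had an estimate of 0.38 ± 0.14 (q = 0.055). The deposited counts of SDHD held fractions in 7 of 12 libraries. A further locus described as the SDHD subunit, LOC100346169, reached 9.22 CPM in TL-3d replicate 3, and whether it shares reads with SDHD was not tested.

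In complexes III and IV the few genes under their own names did not pass the test at 3 hours. UQCRQ, a small subunit of complex III, was at 23.4, 26.2, and 25.6 CPM in cont and 32.8, 28.0, and 27.9 CPM in TL-3h (log2 fold change 0.24 ± 0.13, q = 0.16). COX4I1, the common isoform of subunit 4 of complex IV, was at 322, 292, and 277 CPM in cont and 330, 287, and 259 CPM in TL-3h (-0.02 ± 0.17, q = 0.92). COX6A1, the isoform of subunit 6A found outside muscle, was at 93.9, 89.6, and 85.1 CPM in cont and 111, 98.8, and 96.7 CPM in TL-3h (0.19 ± 0.11, q = 0.17). COX4I1 had the highest FPKM of the 52 genes in cont, 439 ± 46.3, where the median over the 52 was 57.8 FPKM.

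NDUFA4 rose at 3 hours and at 3 days. It lies on chromosome 10 from 28056813 to 28062920 (OryCun2.0, plus strand), and its level was 31.9, 39.3, and 32.7 CPM in cont, 65.9, 61.0, and 68.6 CPM in TL-3h, 77.0, 57.7, and 60.1 CPM in TL-3d, and 33.8, 43.6, and 44.0 CPM in TL-14d. All TL-3h and TL-3d libraries lay above all cont and TL-14d libraries. The log2 fold change was 0.91 ± 0.16 at both times (q = 0.0011 and q = 0.011). Within libraries, the ratio of its FPKM to that of COX4I1, another subunit of complex IV, was 0.163 to 0.220 in cont, 0.327 to 0.434 in TL-3h, 0.301 to 0.420 in TL-3d, and 0.139 to 0.266 in TL-14d, which needs no scaling between libraries. NDUFA4L2, a paralog known to be induced by hypoxia, was far lower, with 0.427, 1.20, and 4.41 CPM in cont and 0.615, 4.48, and 3.62 CPM in TL-3h. In TL-3d it was at 4.12, 2.12, and 23.8 CPM, where TL-3d replicate 3 alone set the high value, and its log2 fold change of 2.31 ± 1.21 did not pass the test (q = 0.20).

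**Figure D3:**
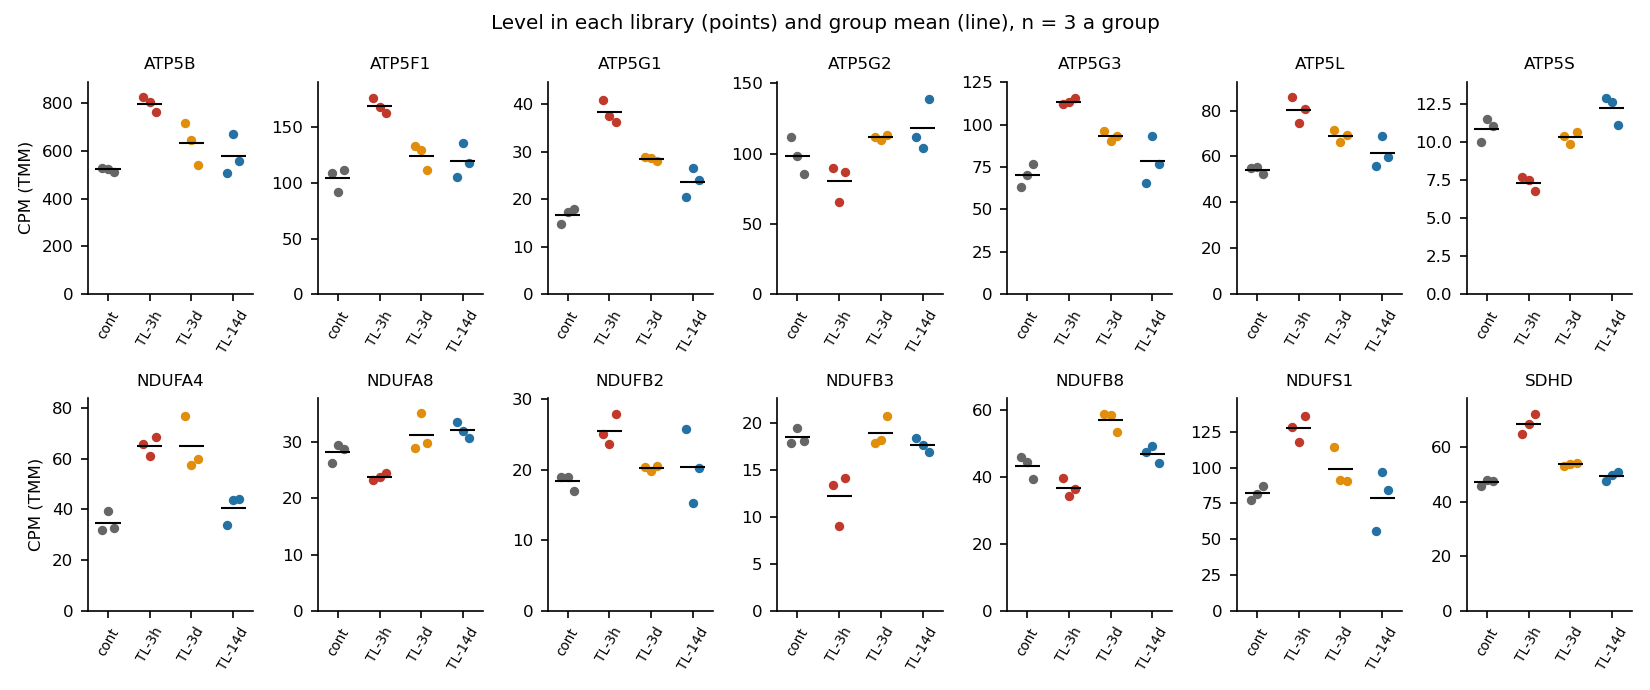
Level in CPM with TMM (y axis from 0) of the 14 genes called in at least 1 comparison, by group; points are libraries and lines are means of 3. ATP5G1, NDUFA4, and SDHD are above all cont libraries in TL-3h, and NDUFB3 and ATP5S are below them.

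At 3 days, 4 of the 52 genes were higher than in cont and none was lower, beside 10.6% higher and 7% lower over all genes. The median log2 fold change of the 52 genes was 0.15, against -0.00 over all genes, and 42 estimates were above 0. These medians moved little with the scaling: with library size alone they were 0.12 and -0.03. The 4 genes were NDUFA4 and ATP5G1, described above, NDUFB8, and ATP5L, and 3 of them had also risen at 3 hours, a comparison that shares the cont libraries. NDUFB8, an accessory subunit of complex I whose protein is labile when the complex is not assembled, was at 45.9, 44.5, and 39.3 CPM in cont, 39.8, 34.3, and 36.5 CPM in TL-3h, and 58.8, 58.5, and 53.3 CPM in TL-3d. It was higher in TL-3d than in cont by a log2 fold change of 0.40 ± 0.11 (q = 0.033), and its TL-3d libraries lay above all others of these groups. The call was lost in 8 of 20 alternatives, with a highest q of 0.113 without TL-3d replicate 2. ATP5L was at 71.7, 66.3, and 69.4 CPM in TL-3d (0.35 ± 0.11, q = 0.048), a call lost in 15 of 20 alternatives.

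From 3 hours to 3 days, 5 of the 52 genes rose and 3 fell, beside 18.4% and 19.0% of all genes. All 3 complex I genes called in this comparison rose: NDUFB3 by a log2 fold change of 0.64 ± 0.17 (q = 0.016), NDUFB8 by 0.63 ± 0.11 (q = 0.0015), and NDUFA8, a further accessory subunit, by 0.39 ± 0.11 (q = 0.020). NDUFA8 was at 23.2, 23.8, and 24.6 CPM in TL-3h and 29.0, 35.1, and 29.9 CPM in TL-3d, without overlap. ATP5S rose by 0.49 ± 0.14 (q = 0.020) to 10.4, 9.89, and 10.6 CPM, inside the range of cont with 1 library just below it. The genes that fell were SDHD and ATP5G1, given above, and ATP5F1, which fell by 0.44 ± 0.13 on the log2 scale (q = 0.025) to 133, 129, and 111 CPM, an estimate that turned to 0.04 with library size alone. This call was lost without any 1 of the TL-3h libraries, without TL-3d replicate 2 or 3, and without the 3 libraries that correlated least with their groups (q from 0.060 to 0.094). With library size alone, 30 of the 52 genes rose and none fell, beside 34.2% and 8.31% of all genes, where the median of all genes shifted to 0.43 and that of the 52 genes to 0.50.

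At 14 days none of the 52 genes was called against cont, beside 0% higher and 0% lower of all genes tested by edgeR. Of the 52, 2 had an unadjusted p under 0.05. The DESeq2 test called 1 higher and 1 lower, beside 1.89% and 0.488% of all genes. The smallest p-values belonged to ATP5G1, to ATP5J2, subunit f of the membrane part of ATP synthase, and to ATP5SL, an assembly factor of complex I despite its name. ATP5J2 was at 21.8, 22.9, and 20.7 CPM in cont and 23.8, 29.8, and 27.3 CPM in TL-14d (log2 fold change 0.31 ± 0.11, q = 0.42), and ATP5SL was at 10.4, 11, and 9.73 CPM and 15.5, 12.5, and 11.3 CPM (0.33 ± 0.18, q = 0.56). Neither gene overlapped between the groups. The median log2 fold change was 0.12, beside 0.02 over all genes, and 43 of 52 estimates were above 0. From 3 days to 14 days none of the 52 genes was called by edgeR, beside 0.647% higher and 1.59% lower of all genes. DESeq2 called 0 higher and 1 lower, beside 5.35% and 6.38% of all genes.

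**Figure D4:**
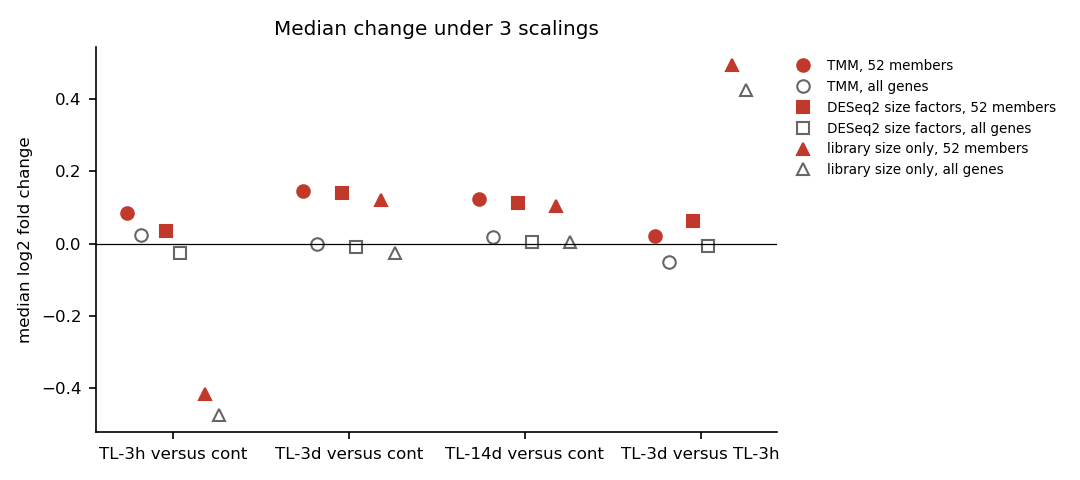
Median log2 fold change (y axis) of the 52 genes (filled) and of all genes tested (open) in 4 comparisons under TMM, DESeq2 size factors, and library size alone. Library size alone moves both medians down together in TL-3h versus cont, to -0.42 and -0.47, and up together in TL-3d versus TL-3h.

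With TMM, the summed mRNA of the 13 subunits encoded by the mitochondrial genome was lowest at 3 days. These mRNAs summed to 38556 to 48900 CPM in cont, 43027 to 47078 CPM in TL-3h, 32017 to 37070 CPM in TL-3d, and 39255 to 49072 CPM in TL-14d. Only the TL-3d libraries lay below all cont libraries. As a share of all raw counts the 13 made up 4.88% ± 0.799 in cont, 3.53% ± 0.198 in TL-3h, 3.66% ± 0.187 in TL-3d, and 4.69% ± 0.614 in TL-14d (SD, n = 3), so that TL-3h was the lowest on that scale. At 3 days 5 of the 13 were lower than in cont and none was higher, beside 7% lower and 10.6% higher over all genes. Their median log2 fold change was -0.47 (-0.50 with library size alone, which also called 5 lower, beside 7.12% of all genes). ND6 was the exception in direction, at 13.3 CPM in TL-3d. From 3 hours to 3 days 7 of the 13 fell, beside 19.0% of all genes, and with library size alone 1 fell, beside 8.31%. The 5 were ND1, ND2, ND3, and ND5 of complex I and ATP8 of ATP synthase, and are named here after their values were seen. ND2 fell most among these, from 1678 ± 89.8 CPM in cont to 925 ± 120 CPM in TL-3d (SD, n = 3), a log2 fold change of -0.86 ± 0.16 (q = 0.014). The count of 5 was kept or exceeded without TL-3d replicate 3 or cont replicate 3, was 4 without TL-14d replicate 3, was 1 without cont replicate 1, and was 0 without cont replicate 2 or without TL-3d replicate 1 or 2, while the median stayed between -0.60 and -0.38. DESeq2 called 10 of the 13 lower, beside 12.9% of all genes. Leaving out the 3 libraries that correlated least with their groups gave 11, and the share of all genes in that fit is not given here. The ratio of counts of the 13 mitochondrial to the 52 nuclear genes within a library was 12.6, 13.5, and 11.1 in cont, 10.3, 10.7, and 11.3 in TL-3h, 7.50, 8.12, and 9.46 in TL-3d, and 13, 10.4, and 10.6 in TL-14d. The TL-3d ratio was below every library of the other groups. At 3 hours 1 of the 13 rose and none fell, beside 23.2% and 22.2% of all genes, while with library size alone 1 was higher and 6 were lower, beside 12.7% and 38.2%. The gene that rose was ND6, at 11 CPM in cont and 25.3 CPM in TL-3h (1.20 ± 0.24, q = 0.0028). ND6 is encoded on the opposite strand to the others, and whether counting used the strand is not given in the sources used here.

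**Figure D5:**
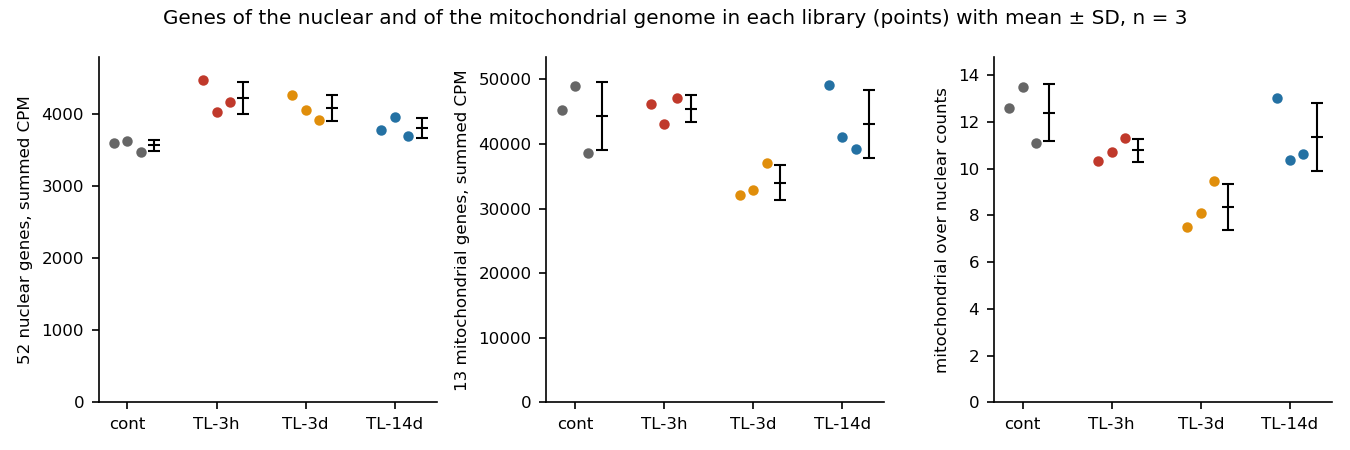
Summed CPM of the 52 nuclear genes (left), of 13 mitochondrial genes (middle), and the ratio of their counts within each library (right), y axes from 0; points are libraries and bars are mean ± SD of 3. In TL-3d the ratio is 7.50 to 9.46, below the 11.1 to 13.5 of cont.

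Many subunits of complexes III and IV and cytochrome c are named by a locus number in the table, so the name rule did not reach them. By their descriptions, 36 loci of subunits of any of the 5 complexes or of cytochrome c were found after the files were seen, most of them of complexes III and IV, and 29 of them were tested. At 3 hours 3 of the 29 were higher and none was lower, beside 23.2% and 22.2% of all genes, and at 3 days 2 were higher, beside 10.6%. The 3-hour count was 1 higher and 4 lower with library size alone, beside 12.7% and 38.2% of all genes. It was 1 higher without cont replicate 1, TL-3h replicate 1 or 2, or TL-3d replicate 2. DESeq2 called 6 higher at 3 hours, beside 22.9% of all genes with that test. At 3 days DESeq2 called 6 higher and 1 lower, beside 15% and 12.9% of all genes. The 3-day count was 0 without cont replicate 1 or 2 or TL-3d replicate 1 or 2, and 1 without cont replicate 3 or TL-3d replicate 3. The Rieske iron-sulfur subunit of complex III (LOC100350787) was at 51.5, 69.9, and 65.0 CPM in cont and 96.3, 78.5, and 84.7 CPM in TL-3h (log2 fold change 0.48 ± 0.16, q = 0.036). Subunit 8A of complex IV (LOC100343255) was at 50.7, 49.95, and 45.7 CPM in cont and 70.2, 66.4, and 66.8 CPM in TL-3d (0.47 ± 0.10, q = 0.015). Cytochrome c, the mobile electron carrier that also triggers apoptosis when it leaves the mitochondrion, had the largest change. Its locus LOC100341175 was at 26.1, 14.8, and 43.9 CPM in cont, 355, 301, and 431 CPM in TL-3h, 65.7, 62.9, and 27.1 CPM in TL-3d, and 25.5, 99.4, and 65.2 CPM in TL-14d. The TL-3h libraries lay far above all others, with a log2 fold change of 3.68 ± 0.58 (q = 0.00071). Its counts held fractions in all 12 libraries, and 2 further loci carry the same description, so whether reads were split among copies is uncertain. The muscle isoforms were rare: both loci of subunit 6A2 were at 0 in all TL-3h libraries and reached 1.73 and 2.28 CPM in cont replicate 2 and 0.825 and 1.22 CPM in TL-3d replicate 3, the libraries with the highest summed skeletal muscle markers (673 and 547 CPM). Subunit 7A1 (LOC100356756) reached 3.48 CPM in cont replicate 2 and was at 0.370 CPM in TL-3d replicate 3.

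Genes that build and supply the complexes were counted from the fixed lists, beside 23.2% higher and 22.2% lower of all genes at 3 hours and 10.6% and 7% at 3 days. Of 70 tested proteins of the mitochondrial ribosome, which translates the mitochondrially encoded subunits, 37 were higher and 3 lower (median log2 fold change 0.40), and at 3 days 9 were higher and none was lower. Of 18 genes of protein import, 12 were higher and none was lower at 3 hours (0.64), and 3 were higher at 3 days. Between 3 hours and 3 days 12 of the import genes fell, beside 19.0% of all genes. Library size alone gave 4 lower and 3 higher there, beside 8.31% and 34.2%. The 3-day counts rested on single libraries: for the mitochondrial ribosome 1 gene was higher without cont replicate 1 or 2 or TL-3d replicate 1 or 2, 4 without cont replicate 3, and 5 without TL-3d replicate 3, TL-3h replicate 3, or TL-14d replicate 3. For import none was higher without cont replicate 1 or 2 or TL-3d replicate 2, and 1 was higher without TL-3d replicate 1 or 3. With library size alone, the mitochondrial ribosome list had 10 higher and 17 lower at 3 hours and the import list 7 higher and 3 lower, beside 12.7% and 38.2% of all genes. That scaling shifted the median of all genes to -0.47, and the medians of the lists were -0.10 and 0.14. TIMM8A, a chaperone of the intermembrane space, rose by a log2 fold change of 2.91 ± 0.22 (q = 2.9e-05). Differences between these lists and the 52 subunits were not tested.

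The lists of assembly factors, biogenesis regulators, and tricarboxylic acid cycle enzymes had calls on both sides at 3 hours. Among 15 assembly factors of complex I, 3 were higher and 4 lower, with NDUFAF4 at 2.19 ± 0.28 (q = 0.00025) and NUBPL, which delivers iron-sulfur clusters, at -1.16 ± 0.30 (q = 0.0099). Among 13 assembly factors of complexes II to V, 4 were higher and 2 lower. Leaving out each library in turn gave 2 to 4 higher and 1 to 2 lower for these, and 3 higher and 2 to 5 lower for complex I assembly. Among 20 regulators of mitochondrial biogenesis, 7 were higher and 4 lower. The coactivator PPARGC1A fell by 3.54 ± 0.46 on the log2 scale (q = 0.00026), and its relative PPRC1 rose by 2.44 ± 0.34 (q = 0.00039). At 3 days PPARGC1A was still lower than in cont, at -1.65 ± 0.43 (q = 0.029). Leaving out each library in turn gave 0 to 4 lower on this list at 3 days, so the PPARGC1A call did not hold in every such fit. Among 18 enzymes of the tricarboxylic acid cycle, which feeds complexes I and II, 7 were higher and 5 lower, with IDH3A at 2.45 ± 0.26 (q = 9.2e-05) and pyruvate carboxylase, PC, at -2.01 ± 0.39 (q = 0.0022). Among 10 carriers, uncoupling proteins, and ATP synthase inhibitors, 6 were higher and none was lower. With library size alone, the counts higher and lower were 2 and 8 for complex I assembly, 0 and 7 for assembly of complexes II to V, 4 and 8 for biogenesis, 4 and 9 for the tricarboxylic acid cycle, and 3 and 2 for the carriers. Of all genes, 12.7% were higher and 38.2% lower with that scaling. At 14 days no gene of these lists was called by edgeR.

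The spread within groups was read from the 51 of the 52 nuclear genes that averaged 1 CPM or more. Their SD of log2(CPM + 0.5) between libraries of a group had a median of 0.09 in cont, 0.14 in TL-3h, 0.07 in TL-3d, and 0.15 in TL-14d, beside 0.23, 0.26, 0.21, and 0.32 over 13253 genes. Over the 5 comparisons, 14 of the 52 genes were called at least once and 38 were not, beside 58.2% of all genes called at least once. Fractions in the deposited counts, whose origin is not given in the sources used here, occurred in every library for 5 of the 52 genes and in no library for 16.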

How the data were processed

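RNA from 12 libraries was sequenced with a stranded mRNA kit and 150 bp reads, and the submitters' processing notes name STAR 2.6.0c and the build OryCun2.0. The authors deposited an estimated count per gene, not scaled to depth, of which 23.4% were fractions, and an FPKM value scaled by length and depth. The table of transcripts was not used. Estimated counts were rounded. The counts were tested by the quasi-likelihood test of edgeR 4.0.16 in R 4.3.3, with filterByExpr (minimum count 10, minimum total count 15), which kept 14835 of 20566 genes, TMM, all 12 libraries in 1 fit, a prior count of 0.125, and Benjamini-Hochberg adjustment over the genes kept. Standard errors were derived from the fold change and the test statistic. FPKM served only for levels between genes, without a test. Floors cover counting error only: a count of 0 allows up to 3 counts, 0.0777 to 0.111 CPM by library size alone.

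Groups came from the sample labels. Samples of a group are separate eyes by the labels and the methods, and p-values measure the spread between these libraries. No pair of libraries in a group agreed within sampling noise. The members and gene lists were chosen with earlier results of these data known. Genes named were 13 of 30 fixed core subunits and isoforms found under their own symbols (1 of them is not reported here), the 5 largest increases and decreases among the called genes at 3 hours, at 3 days, and between them, and the 3 smallest p-values at 14 days, and from other lists up to 2 of the largest called changes in each direction at 3 hours. The gene lists covered complex I assembly factors, assembly factors of complexes II to V, biogenesis regulators, tricarboxylic acid cycle enzymes, protein import, the mitochondrial ribosome, mitochondrial genome proteins, carriers with uncoupling proteins and inhibitors, and markers of 5 cell types. Alternatives were the DESeq2 1.42.0 test, its size factors, library size alone, no filter, 10 counts in 3 libraries, a replicate block, the 6 libraries compared, each library left out, and, chosen after seeing the data, leaving out the 3 libraries that correlated least with their groups. The fit was tested on simulated counts. Promoter sequences were not analysed here.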

Additional observations from a re-analysis of the deposited data

Results flagged for a closer look

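For 8 of the 52 genes the change at 3 days differed from the change at 3 hours, tested as the contrast between TL-3d and TL-3h in the edgeR fit (q of 0.05 or less over all genes): 5 were higher and 3 lower, beside 18.4% and 19.0% of all genes. The log2 difference was 0.64 for NDUFB3, 0.63 for NDUFB8, 0.49 for ATP5S, 0.47 for ATP5G2, and 0.39 for NDUFA8, and it was -0.44 for ATP5F1, -0.42 for ATP5G1, and -0.35 for SDHD. NDUFB3 and NDUFB8 stayed past the threshold in all 20 alternatives, and the other 6 did not in at least 1. With 3 libraries a group, single libraries were not tested as outliers.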

How the results depend on the processing

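Counts of the 52 genes called higher or lower depended most on scaling and on the tool. In TL-3h versus cont (main 9 higher, 2 lower), library size alone gave 1 and 25, beside 12.7% and 38.2% of all genes. DESeq2 gave 6 lower, beside 24.6% of all genes. The 6 libraries compared gave 1 lower, and the fit without the 3 libraries that stand apart, chosen after seeing the data, gave 5 lower. In TL-3d versus cont (4 higher), DESeq2 gave 8 higher, beside 15% of all genes, and library size alone gave 2, beside 9.83%. In TL-14d versus cont (0 and 0), DESeq2 gave 1 higher and 1 lower, beside 1.89% and 0.488% of all genes. The fit without the 3 libraries gave 1 higher. In TL-3d versus TL-3h (5 higher, 3 lower), DESeq2 gave 10 higher, beside 21.3% of all genes. Library size alone gave 30 higher and 0 lower, beside 34.2% and 8.31%. In TL-14d versus TL-3d, DESeq2 gave 1 lower, beside 6.38% of all genes. With library size alone, NDUFB2 (-0.026) and SDHB (-0.29) reversed at 3 hours, and ATP5F1 (0.038), ATP5G1 (0.055), and SDHD (0.12) reversed between TL-3h and TL-3d. By its construction that scaling leaves out the TMM factors; the cause of the other changes was not tested.

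Leaving out each library in turn gave 7 to 11 higher and 1 to 4 lower in TL-3h versus cont, 2 to 7 higher in TL-3d versus cont (7 without TL-14d replicate 1, and 2 without any 1 of the cont libraries, TL-3h replicate 3, or TL-3d replicate 1 or 2), 0 to 1 higher in TL-14d versus cont (1 without TL-14d replicate 1), and 3 to 7 higher and 1 to 4 lower in TL-3d versus TL-3h. Calls that held in all 20 alternatives were ATP5G1 and ATP5S at 3 hours and ATP5G1 and NDUFA4 at 3 days. From 3 hours to 3 days, SDHD was not called without TL-3h replicate 3 (q = 0.052), NDUFA8 without TL-3d replicate 2 (q = 0.092), or ATP5S without TL-3d replicate 1 or 3 (q = 0.054 and 0.053). The median of the 52 genes in TL-3h versus cont ranged from -0.02 to 0.12 over the fits with 1 library left out.

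With the replicate number as a block, 8 were higher and 2 lower in TL-3h versus cont, 4 higher in TL-3d versus cont, and 5 higher and 3 lower in TL-3d versus TL-3h. Deviations of same-numbered libraries correlated between -0.16 and 0.53 and those of others between -0.57 and 0.43. These ranges overlap, so they do not settle whether the numbers pair the samples.

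Low counts limited NDUFA13, the untested NDUFB1 and ATP5I, and rare loci such as the muscle isoforms, while NDUFA4L2 was limited by the spread between libraries. A q above the threshold does not show equal levels.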

Other observations

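The gene C17H15orf48 was looked up after the values of the 52 genes were seen, since its human counterpart is known to replace NDUFA4 in complex IV in inflamed cells. It was at 31.6, 29.0, and 35.4 CPM in cont and 107, 26.2, and 65.5 CPM in TL-3h, where the groups overlapped, and its log2 fold change of 1.05 ± 0.54 did not pass the edgeR test (q = 0.14). In TL-3d its level was 38.1, 43.5, and 19.0 CPM, with a log2 fold change of 0.07 ± 0.54 (q = 0.94), a time at which NDUFA4 was higher than in cont in 3 of 3 libraries.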
